A study of Rattus norvegicus with 192 samples.

Results

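Triflumizole, an imidazole fungicide, was given to primary hepatocytes of male rats at 6 doses, and the 6 libraries whose labels name it are described here, of 192 libraries in all. The cells were isolated from liver, plated on collagen and exposed for 24 h. Each of the doses 0.14, 0.4, 1.2, 3.7, 11.1 and 33.3 µM had 1 library, and all 6 came from plate 1. They were set against 8 libraries of cells given the solvent alone (0.1% DMSO), replicates 2 to 9, of which 2 came from plate 1, 3 from plate 2 and 3 from plate 3. DMSO replicate 1 stood apart from the others and was left out. Expression was measured by TempO-Seq, a probe assay in which neighbouring oligonucleotides hybridised to an RNA are joined and the joined products are sequenced and counted. The labels do not say whether wells held cells of different animals, so replicate error here, and each p-value built on it, is the spread from library to library and could be purely technical.

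Azole fungicides bind fungal lanosterol 14-alpha-demethylase (CYP51) through a ring nitrogen that coordinates its haem iron, and they can bind other cytochrome P450 enzymes too. In liver, foreign chemicals are sensed by the nuclear receptors CAR and PXR, which induce Cyp2b and Cyp3a enzymes and conjugating enzymes, and by the aryl hydrocarbon receptor (AhR), which induces Cyp1a1. NRF2 is a transcription factor held low by KEAP1 and released by electrophiles and oxidants. It drives genes of glutathione synthesis, glutathione transfer, quinone reduction and NADPH supply.

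The triflumizole libraries held 4230195 to 6934036 counts and the DMSO libraries 2876741 to 8513985. Hepatocyte markers were abundant throughout, at 32734 to 47573 CPM (counts scaled to a common library total) in sum over 14 genes in triflumizole libraries and 35377 to 57005 CPM in DMSO libraries. The 13 macrophage markers summed to 77.1 to 121 CPM with triflumizole and 71.2 to 108 CPM with DMSO. The 11 stellate cell markers summed to 36.6 to 59.8 CPM with triflumizole and 54.6 to 95.9 CPM with DMSO, and their part in the results was not tested. The most abundant of them, Tagln, alone had 17.8 to 43.6 CPM with triflumizole and 43.8 to 80.8 CPM with DMSO. Of the 5 stellate cell markers tested against dose below, 2 had changes above 0 and 3 below 0. Endothelial markers summed to 14.7 to 26.0 CPM with triflumizole and 16.1 to 23.7 CPM with DMSO, and bile duct markers to 54.7 to 72.4 CPM and 54.9 to 88.4 CPM. Col1a1, Krt7 and Cftr were listed at 0 in all 14 libraries. Fewer cells of a type and less RNA per cell cannot be told apart in such samples. Along the first principal component of the whole series (28.4% of the variance) DMSO replicate 5, at 2.74, and the triflumizole 0.14 and 3.7 µM libraries, at 1.95 and 1.14, stood apart from the other 11, which lay between −0.995 and 0.36.

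The number of transcripts that left the DMSO level did not follow the dose. Of 5535 well-measured probes (mean log2 CPM above 4), 398 (7.19%) lay at least 1 on the log2 scale from the DMSO mean at 0.14 µM. The count was 29 (0.524%) at 0.4 µM, 28 (0.506%) at 1.2 µM, 77 (1.39%) at 3.7 µM, 29 (0.524%) at 11.1 µM and 109 (1.97%) at 33.3 µM. Of the 8 DMSO libraries, each set against the mean of the other 7, 7 gave 1 to 52 such probes, and DMSO replicate 5 gave 829. With 1 library per dose there is no test of these counts. At 0.14 µM 280 of the 398 probes were lower and at 33.3 µM 58 of 109 were lower. With a limit of 2 on the log2 scale the 33.3 µM library had 14 probes, 10 of them higher, and the 0.14 µM library 19, 18 of them lower. Without DMSO replicate 5 in the mean the count became 606 at 0.14 µM, 154 at 3.7 µM and 14 at 0.4 µM.

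**Figure D1:**
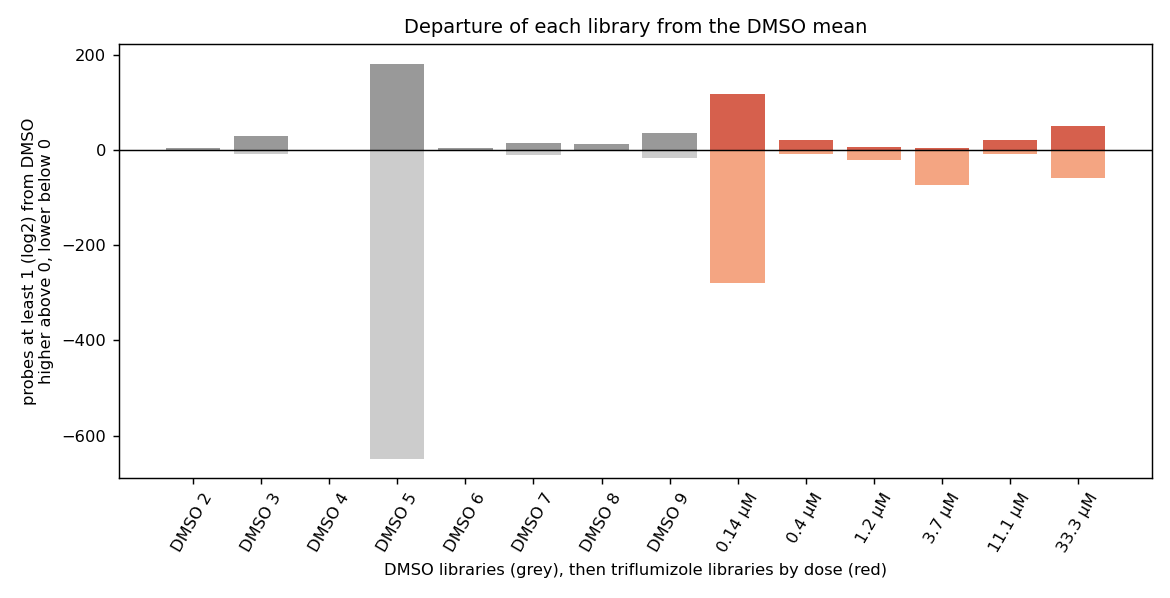
Number of probes at least 1 (log2) above (upward bars) or below (downward bars) the DMSO mean, of 5535 probes, in each of the 8 DMSO libraries (grey) and the 6 triflumizole libraries in order of dose (red). The largest bars belong to DMSO replicate 5 (829 probes in all) and triflumizole 0.14 µM (398), and the 33.3 µM library has 109.

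Trends with dose were tested over all 14 libraries with edgeR's quasi-likelihood test on a dose score, log2(1 + dose in µM), with plate as a term. A change is given as the fitted log2 difference between 33.3 µM and DMSO with its standard error (SE), and a probe was called at a Benjamini-Hochberg adjusted p under 0.05 over 11055 probes. Triflumizole called 56 probes (0.507%), 30 higher (0.271%) and 26 lower (0.235%), and 795 had an unadjusted p under 0.05. The median change over all probes was −0.02. The higher probes were mainly of drug-metabolising and antioxidant enzymes, and the lower ones included genes of fasting, sugar metabolism, anion uptake and the interferon response. The called transcripts left the DMSO range most often at 11.1 and 33.3 µM, and some lay outside it at every lower dose. Of the 30 called higher, 6, 10, 8, 12, 28 and 30 lay above the highest DMSO value at 0.14, 0.4, 1.2, 3.7, 11.1 and 33.3 µM, where 17.5%, 14.4%, 10%, 7.56%, 10% and 10.7% of all 11055 probes did. Of the 26 called lower, 7, 10, 12, 15, 26 and 24 lay below the lowest DMSO value, where 13.5%, 9.41%, 7.79%, 9.28%, 7.56% and 10.6% of all probes did. These genes were called from the same values, so both series are a description of their dose course.

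The calls rested largely on the highest dose. Without the 33.3 µM library 4 probes were called, all among the 56, namely Gsta2, Gsta50.81 and Ptgr1, which were higher, and LOC1009109340.000001, which was lower. Without the 11.1 µM library 26 probes were called, and without DMSO replicate 2, 3 or 8 there were 28, 24 and 37. Without the 0.14 µM library there were 112, and without both it and DMSO replicate 5 there were 265, 106 higher and 159 lower, which include all 56. DMSO replicates 2 and 3 are the controls of the triflumizole plate, and within that plate alone 17 probes were called, 14 higher and 3 lower, all of them among the 56. With DMSO replicate 1 kept, 7 were called.

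Of 25 tested members of the NRF2 list 10 rose and none fell at an adjusted p under 0.05 (16 had an unadjusted p under 0.05). Their median change was 1.04, against −0.02 over all probes, and 24 of 25 changes were above 0. Over all probes 0.271% were called higher and 5252 of 11055 changes were above 0. The 10 included the glutathione transferases Gsta2 and Gsta4, the aflatoxin aldehyde reductase Akr7a3, the quinone reductase Nqo1, the glutamate-cysteine ligase subunits Gclc and Gclm, the epoxide hydrolase Ephx1, haem oxygenase Hmox1 and transketolase Tkt. The list was chosen with earlier results of these data known, and its count is a description.

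Gsta2, an alpha-class glutathione transferase, had 207 to 280 CPM in the DMSO libraries (median 237), 245 CPM at 0.14 µM, 211 at 0.4 µM, 241 at 1.2 µM, 361 at 3.7 µM, 891 at 11.1 µM and 2011 at 33.3 µM. The first 3 doses lay within the DMSO range and the last 3 above it, each higher than the one before. The fitted change was 3.16 ± 0.21 (SE; adjusted p = 2.99e-06), and 2.68 without the 33.3 µM library. The probe labelled Gsta50.81 had 29.0 to 40.2 CPM in DMSO libraries, 143 CPM at 11.1 µM and 231 CPM at 33.3 µM, with a change of 2.71 ± 0.23 (adjusted p = 2.27e-05). Alpha-class transferases are close paralogs whose probes may share targets, so single members are uncertain.

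Ptgr1 encodes a reductase of leukotriene B4 and of reactive aldehydes. It had 148 to 223 CPM in DMSO libraries (median 171), 175, 236, 230 and 244 CPM at 0.14, 0.4, 1.2 and 3.7 µM, 446 CPM at 11.1 µM and 859 CPM at 33.3 µM. Doses of 0.4 µM and above exceeded every DMSO library, and the change was 2.17 ± 0.17 (adjusted p = 1.78e-05). Akr7a3 had 61.1 to 111 CPM in DMSO libraries, 73.7, 124, 109 and 92.7 CPM at the 4 lower doses, 308 CPM at 11.1 µM and 426 CPM at 33.3 µM, a change of 2.18 ± 0.29 (adjusted p = 0.00208). Akr1b10, an aldo-keto reductase, changed by 1.86 ± 0.24 (adjusted p = 0.00208), with 234 CPM at 33.3 µM against 39.9 to 64.1 CPM in DMSO libraries.

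The quinone reductase Nqo1 had 56.4 to 69.9 CPM in DMSO libraries, 97.2 CPM at 0.14 µM, 48.5 CPM at 0.4 µM, 46.7 CPM at 1.2 µM, 98.8 CPM at 3.7 µM, 155 CPM at 11.1 µM and 277 CPM at 33.3 µM. Its course was not monotonic, as the 0.4 and 1.2 µM libraries lay below every DMSO library and the lowest dose above. The change was 2.06 ± 0.31 (adjusted p = 0.00484). Gclc, the catalytic subunit of the ligase that limits glutathione synthesis, reached 469 CPM at 33.3 µM and 243 CPM at 11.1 µM, against 114 to 187 CPM in DMSO libraries. It changed by 1.54 ± 0.20 (adjusted p = 0.00208), and by 0.92 without the 33.3 µM library. Gclm, the modifier subunit, reached 238 CPM, against 55.0 to 105 CPM in DMSO libraries, with a change of 1.34 ± 0.25 (adjusted p = 0.0292), and 0.83 without the 33.3 µM library. Gsta4 changed by 1.60 ± 0.22 (adjusted p = 0.00294) and by 0.98 without that library. Hmox1, which breaks down haem, had 1265 CPM at 33.3 µM against 241 to 595 CPM in DMSO libraries, but 641 CPM at 0.4 µM as well, and changed by 1.60 ± 0.32 (adjusted p = 0.042), by 1.02 without the 33.3 µM library.

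Tkt and Ephx1 moved less in fold but had little spread in DMSO. Transketolase, Tkt, an enzyme of the pentose phosphate pathway, had 1242 to 1376 CPM in DMSO libraries, 1357 to 1378 CPM at the 3 lowest doses, 1599 CPM at 3.7 µM, 1876 CPM at 11.1 µM and 2470 CPM at 33.3 µM, a change of 0.89 ± 0.12 (adjusted p = 0.00208). The microsomal epoxide hydrolase Ephx1 had 791 to 1056 CPM in DMSO libraries, stayed at 858 to 1032 CPM up to 3.7 µM and had 1845 CPM at 11.1 µM and 2700 CPM at 33.3 µM. It changed by 1.53 ± 0.18 (adjusted p = 0.000786).

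Among the other 15 NRF2 list members, Gstp1, a pi-class glutathione transferase, had a change of 2.13 ± 0.47 (adjusted p = 0.0661) and Akr1b8 one of 1.64 ± 0.43 (adjusted p = 0.151). Thioredoxin reductase Txnrd1 had 0.85 ± 0.19 (adjusted p = 0.081) and sulfiredoxin Srxn1 1.04 ± 0.29 (adjusted p = 0.203). Without the 33.3 µM library these were 0.55 for Txnrd1 and 0.45 for Srxn1. The transaldolase Taldo1, at −0.05 ± 0.86 (adjusted p = 0.999), was the only tested member below 0. Its level was low, with 0.378 to 4.52 CPM in DMSO libraries. Of the 10 called members, 1, Gsta2, was also called without the 33.3 µM library. Akr7a3, Ephx1, Tkt, Gclc, Gsta4 and Nqo1 stayed called without any 1 of the other 13 libraries. Gclm lost its call without the 11.1 or 1.2 µM library or DMSO replicate 3 or 8, and Hmox1 without the 11.1 µM library or any 1 DMSO replicate but replicate 5. With DMSO replicate 1 kept 2 members were called, and with DMSO replicate 5 and the 0.14 and 3.7 µM libraries left out 17 were.

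**Figure D2:**
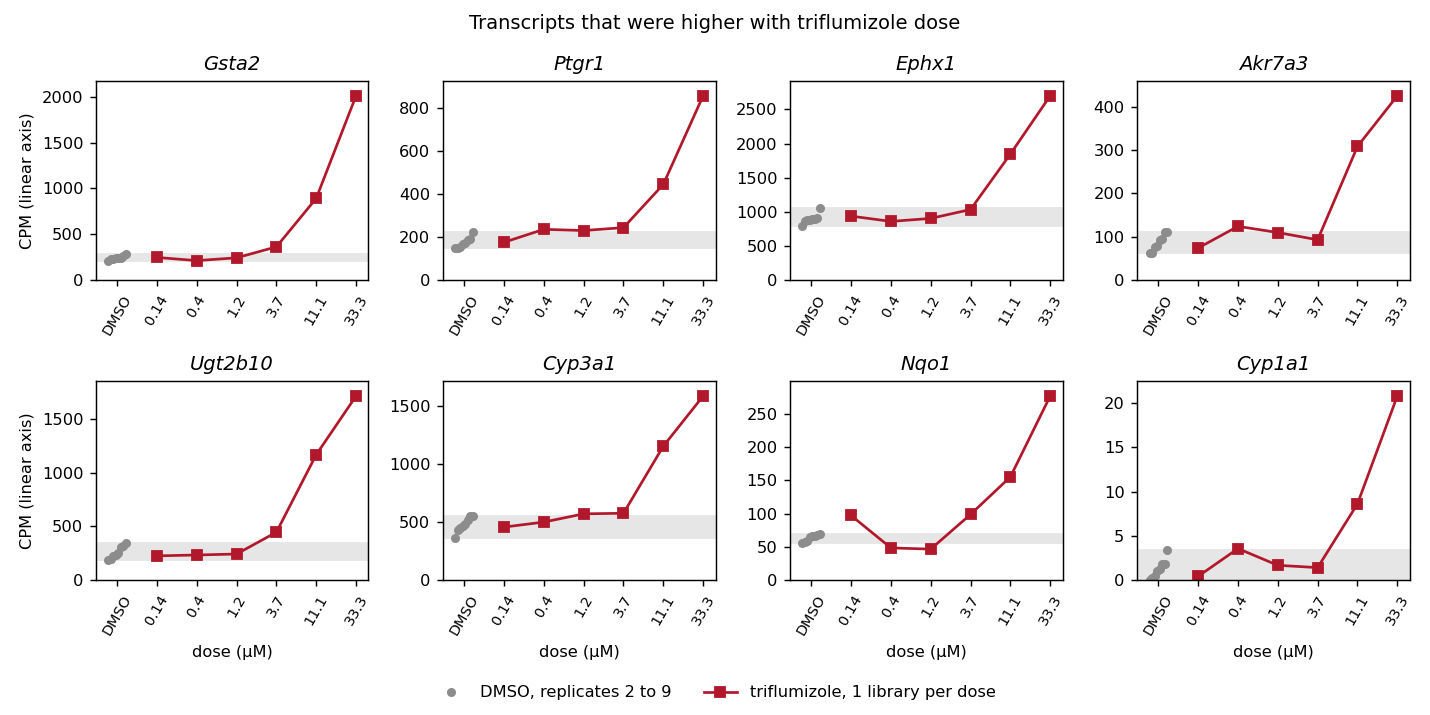
CPM (linear axis) of 8 called transcripts in the 8 DMSO libraries (grey points, grey band from lowest to highest) and in the triflumizole library of each dose (red squares, 1 per dose). Gsta2, Ptgr1, Ephx1, Ugt2b10 and Cyp3a1 climb mainly at 11.1 and 33.3 µM, as does Akr7a3, and Nqo1 falls below it at 0.4 and 1.2 µM.

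Of 21 tested members of the CAR and PXR list 7 rose and none fell, and 14 did not pass the test. The median change was 0.94, with 16 changes above 0 and 5 below, down to −0.57 for the carboxylesterase Ces2a (adjusted p = 0.999). Over all probes 0.271% were called higher, the median was −0.02, and 5252 of 11055 changes were above 0. Apart from Gsta2, which is on both lists, the 7 were Cyp2b2, Ugt2b10, Ugt2b1, Cyp3a23/3a1, Cyp3a1 and Cyp3a2. Ugt2b10, a UDP-glucuronosyltransferase, had 190 to 348 CPM in DMSO libraries (median 244), 226, 234 and 243 CPM at the 3 lowest doses, 446 CPM at 3.7 µM, 1167 CPM at 11.1 µM and 1713 CPM at 33.3 µM. It left the DMSO range from 3.7 µM upward, and its change was 2.78 ± 0.28 (adjusted p = 0.000247). Ugt2b1, of the same family, had 269 CPM at 11.1 µM and 313 CPM at 33.3 µM against 42.1 to 83.7 CPM in DMSO libraries, a change of 2.51 ± 0.37 (adjusted p = 0.00484).

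Cyp3a1, a major steroid and drug hydroxylase of rat liver, had 366 to 552 CPM in DMSO libraries, 456 to 575 CPM up to 3.7 µM, 1151 CPM at 11.1 µM and 1583 CPM at 33.3 µM, with a change of 1.65 ± 0.18 (adjusted p = 0.0006). The probe Cyp3a23/3a1 changed by 1.93 ± 0.33 (adjusted p = 0.0179) and reached 94.8 CPM, against 13.2 to 30.4 CPM in DMSO libraries. Cyp3a2 changed by 0.94 ± 0.17 (adjusted p = 0.0229), with 865 CPM at 33.3 µM against 389 to 516 CPM. Cyp2b2, the phenobarbital-inducible enzyme, was low throughout, with 0.695 to 3.26 CPM in DMSO libraries, 0.865 to 2.31 CPM up to 3.7 µM, 23.3 CPM at 11.1 µM and 11.4 CPM at 33.3 µM. It was thus highest at the second highest dose, with a fitted change of 3.65 ± 0.75 (adjusted p = 0.045). These P450 and Ugt2b genes have close paralogs whose probes may share targets. The labels Cyp3a1 and Cyp3a23/3a1 both name 3a1, so these probes may report the same gene. They were counted as separate members of the list.

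Cytochrome P450 reductase Por, the electron donor of microsomal P450s, had a change of 1.01 ± 0.24 (adjusted p = 0.0957), and Alas1, the first enzyme of haem synthesis, one of 1.10 ± 0.26 (adjusted p = 0.0927). Both missed the threshold, with 687 CPM of Por and 404 CPM of Alas1 at 33.3 µM against 265 to 437 CPM and 137 to 251 CPM in DMSO libraries. Without the 33.3 µM library the change of Por was 0.48. The constitutive male enzyme Cyp2c11 had a change of 0.30 ± 0.16 (adjusted p = 0.802), and 0.20 without the 0.14 µM library. None of the 18 tested members of the other P450s was called (2 had an unadjusted p under 0.05). Ugt2b10, Ugt2b1 and Cyp3a1 stayed called without any 1 library other than the 33.3 µM one, and Cyp3a23/3a1 lost its call without the 11.1 µM library too. Cyp3a2 lost it also without the 11.1 µM library or DMSO replicate 2 or 3, and Cyp2b2 without the 0.4, 1.2 or 11.1 µM library or any 1 DMSO replicate but replicate 5. The number of called members was 4 without the 11.1 µM library, 3 within plate 1, 2 with DMSO replicate 1 kept and 11 without a plate term.

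Of the 4 tested AhR genes, Cyp1a1 and Nqo1 rose, and Nqo1 is on the NRF2 list too. By comparison, 0.271% of all probes were called higher. Cyp1a1 had 0 to 3.40 CPM in DMSO libraries, 0.433, 3.57, 1.68 and 1.42 CPM at the 4 lower doses, 8.61 CPM at 11.1 µM and 20.8 CPM at 33.3 µM. The largest fitted change of all called probes was that of Cyp1a1, 4.39 ± 0.60 (adjusted p = 0.00289), on a low level. Cyp1a2 had a change of 0.43 ± 0.41 (adjusted p = 0.999; 0.20 without the 0.14 µM library), with 74.0 CPM at 33.3 µM within the DMSO range of 29.5 to 87.2 CPM, and Tiparp one of 0.10. Of the 14 libraries, leaving out the 33.3 µM one ended the call of Cyp1a1 and leaving out any other did not.

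Few genes of the fasting response fell. Of 29 tested PPARalpha targets 2 fell and none rose, with a median of −0.31. By comparison, 0.235% of all probes were called lower, and the median change over all probes was −0.02. Fgf21, a hormone secreted by the fasting liver, had 26.7 to 42.8 CPM in DMSO libraries, 40.2, 20.6, 21.7 and 22.7 CPM at the 4 lower doses, 13.4 CPM at 11.1 µM and 5.598 CPM at 33.3 µM, a change of −2.13 ± 0.39 (adjusted p = 0.0244). Other PPARalpha targets stayed closer to DMSO: Cpt1a, the gate to mitochondrial fatty acid oxidation, had a change of 0.11 ± 0.27 and the lipid droplet coat gene Plin2 one of −0.61 ± 0.17 (adjusted p = 0.202). Fgf21 lost its call without DMSO replicate 2 or either of the 2 highest doses. In a list of 8 ketone body genes put together after the values were seen, 2 fell, Fgf21 among them, and none rose, with a median of −0.30.

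Sugar metabolism and fat synthesis had 3 called genes. Of 14 fatty acid synthesis genes 1 fell (median −0.15), of 12 gluconeogenesis and glucocorticoid genes 1 fell (median −0.21), and of 20 sugar genes in a list made after the values were seen 2 fell (median −0.39). By comparison, 0.235% of all probes were called lower. G6pc, glucose-6-phosphatase, the last step of glucose release, was low and had 1.75 to 5.63 CPM in DMSO libraries, 3.75, 2.73, 1.22 and 1.18 CPM at the 4 lower doses, 0.478 CPM at 11.1 µM and 0.640 CPM at 33.3 µM, which is 4 counts. Its change was −3.45 ± 0.64 (adjusted p = 0.0256). Tkfc, the kinase of glyceraldehyde and dihydroxyacetone in fructose breakdown, had 23.0 CPM at 33.3 µM against 43.3 to 79.9 CPM in DMSO libraries, a change of −1.36 ± 0.27 (adjusted p = 0.042). ATP citrate lyase Acly, which supplies acetyl-CoA for fat and sterol synthesis, had 286 CPM at 33.3 µM and 328 CPM at 11.1 µM against 528 to 699 CPM in DMSO libraries, and fell by 1.12 ± 0.21 (adjusted p = 0.0283). Pyruvate kinase Pklr (−1.64 ± 0.35, adjusted p = 0.0579) and acetyl-CoA carboxylase Acaca (−1.48 ± 0.34, adjusted p = 0.086) missed the threshold. G6pc and Acly lost their calls without either of the 2 highest doses or DMSO replicate 2 or 3, Acly also without replicate 8 or 9, and Tkfc without any 1 triflumizole library of 1.2 µM or above or any 1 DMSO replicate but 5 and 7.

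In a list of 12 tested genes of sulfation and organic anion uptake, made after the values were seen, 3 fell and none rose, with a median of −0.44. By comparison, 0.235% of all probes were called lower. The phenol sulfotransferase Sult1a1 had 460 to 809 CPM in DMSO libraries, 429 to 459 CPM at the 4 lower doses, 326 CPM at 11.1 µM and 205 CPM at 33.3 µM, a change of −1.37 ± 0.25 (adjusted p = 0.0244). All 6 triflumizole libraries lay below all 8 DMSO libraries. The organic anion transporter Slc22a8 had 76.5 to 114 CPM in DMSO libraries, 66.5 to 76.0 CPM at the 4 lower doses, 54.4 CPM at 11.1 µM and 30.2 CPM at 33.3 µM, a change of −1.31 ± 0.22 (adjusted p = 0.017). Here too the groups did not overlap. Both genes were called from these same values. At single doses 7.56% to 13.5% of all probes lay below the lowest DMSO value, and the share that did so at every dose was not counted. The uptake carrier Slco1a1 fell by 0.97 ± 0.19 (adjusted p = 0.0341), with 28.0 CPM at 33.3 µM against 55.3 to 75.0 CPM in DMSO libraries. All 3 lost their calls without DMSO replicate 2 or 3 or the 33.3 µM library, Sult1a1 and Slco1a1 also without the 11.1 µM library, and Slco1a1 also without replicate 6, 7, 8 or 9.

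In a list of 34 tested interferon response genes, made after the values were seen, 5 fell and none rose, the median was −0.92, and 33 of 34 changes were below 0. Over all probes 0.235% were called lower, the median was −0.02, and 5803 of 11055 changes were below 0. The list's median was also below 0 for each of the other azoles compared below. Isg15, a ubiquitin-like modifier induced by interferon, had 302 and 276 CPM in the DMSO libraries of plate 1 and 144 to 199 CPM in the other 6, then 421, 318, 222, 224, 73.8 and 96.4 CPM from the lowest to the highest dose. The 2 lowest doses lay above and the 2 highest below every DMSO library. The change was −2.04 ± 0.35 (adjusted p = 0.0172), and without a plate term it was −1.33 and missed the threshold. Irf7, the factor that amplifies the interferon response, had 7.65 to 19.97 CPM in DMSO libraries, 13.0 and 14.9 CPM at the 2 lowest doses, 7.17 CPM at 1.2 µM and 3.52 to 4.15 CPM at 3.7, 11.1 and 33.3 µM, a change of −2.39 ± 0.40 (adjusted p = 0.0149).

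The antiviral GTPase Mx2 changed by −1.74 ± 0.27 (adjusted p = 0.0085), the guanylate-binding protein Gbp2 by −1.43 ± 0.29 (adjusted p = 0.042) and Tmem140 by −0.86 ± 0.17 (adjusted p = 0.0369). Usp18 (−1.35 ± 0.31, adjusted p = 0.0896) and Gbp5 (−1.30 ± 0.28, adjusted p = 0.0576) missed the threshold. Usp18, at 23.8 and 28.6 CPM at 11.1 and 33.3 µM, lay within the DMSO range of 22.9 to 65.7 CPM, and its change was −2.05 without the 33.3 µM library. The DMSO libraries of plate 1, the triflumizole plate, had 65.7 and 65.0 CPM of Usp18. Those of plates 2 and 3 had 22.9 to 40.7 CPM. Isg15 stayed called without any 1 library other than 33.3 µM, and Irf7 and Mx2 without any 1 other than 11.1 or 33.3 µM. Mx2 also missed the threshold without a plate term, with 10.6 and 10.2 CPM in the DMSO libraries of plate 1 and 5.26 to 7.25 CPM in those of plates 2 and 3. Gbp2 lost its call without any 1 of 1.2, 3.7, 11.1 and 33.3 µM or any 1 DMSO replicate but 5, and Tmem140 without 0.4, 1.2, 11.1 or 33.3 µM or any 1 DMSO replicate but 5 and 6. Macrophage markers, whose sums are given above, were not called (0 of 10 tested, none under an unadjusted p of 0.05), and their part in the interferon genes was not tested.

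**Figure D3:**
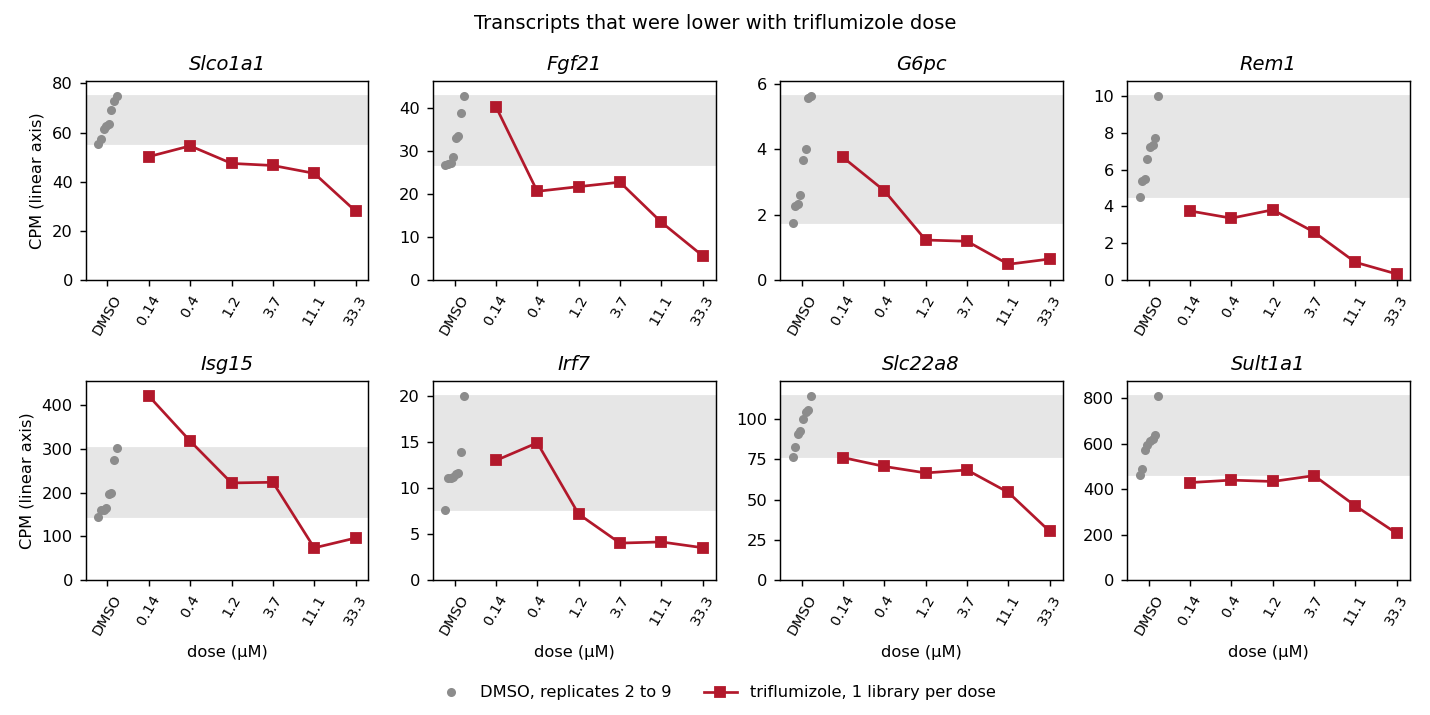
CPM (linear axis) of 8 transcripts called lower, in the 8 DMSO libraries (grey points, grey band from lowest to highest) and in the triflumizole library of each dose (red squares). Sult1a1, Slc22a8, Slco1a1 and Rem1 lie below the DMSO band at every dose, Fgf21 is lowest at 33.3 µM, and Isg15 lies above the band at 0.14 and 0.4 µM and below it at 11.1 and 33.3 µM. The genes were called from these same values, and the share of all probes below the band at every dose was not counted.

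The promoters of 4 called genes show the letters that NRF2 and interferon-regulated factors are known to bind, taken from RefSeq (GRCr8, the 250 bases before the start of the gene, 5′ to 3′ on the gene's strand). Capitals mark a match to TGACNNNGC, the core of the antioxidant response element, in Ephx1 and Gclm, and to GAAA, any 2 bases and GAAA again, a core of the interferon-stimulated response element, in Irf7 and Gbp2. Both strands were searched, and all 4 matches read on the opposite strand.
Ephx1 (chr13:95263118-95263367, − strand): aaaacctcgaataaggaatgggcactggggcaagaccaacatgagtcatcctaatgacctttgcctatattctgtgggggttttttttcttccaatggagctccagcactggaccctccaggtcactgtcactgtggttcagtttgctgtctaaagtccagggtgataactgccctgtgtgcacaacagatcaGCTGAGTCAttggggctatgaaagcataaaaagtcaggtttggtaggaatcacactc
Gclm (chr2:213031885-213032134, + strand): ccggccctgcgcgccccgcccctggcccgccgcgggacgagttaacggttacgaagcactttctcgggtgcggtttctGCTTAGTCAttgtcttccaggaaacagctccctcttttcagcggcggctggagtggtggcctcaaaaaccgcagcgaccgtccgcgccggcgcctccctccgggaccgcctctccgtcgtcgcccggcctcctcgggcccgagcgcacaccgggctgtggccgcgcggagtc
Irf7 (chr1:205800024-205800273, − strand): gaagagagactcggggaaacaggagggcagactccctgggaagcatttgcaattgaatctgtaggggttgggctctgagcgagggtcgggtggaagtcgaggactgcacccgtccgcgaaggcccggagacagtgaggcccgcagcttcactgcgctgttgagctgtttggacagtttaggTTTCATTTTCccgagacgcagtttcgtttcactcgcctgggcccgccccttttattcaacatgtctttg
Gbp2 (chr2:234005477-234005726, + strand): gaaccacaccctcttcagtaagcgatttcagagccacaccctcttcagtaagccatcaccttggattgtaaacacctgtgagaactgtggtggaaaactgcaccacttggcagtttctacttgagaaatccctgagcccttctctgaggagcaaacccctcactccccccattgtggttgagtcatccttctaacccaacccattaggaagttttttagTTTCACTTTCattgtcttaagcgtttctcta

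The first bases of these matches lie 57, 172, 69 and 31 bases before the start in Ephx1, Gclm, Irf7 and Gbp2. RefSeq lists 2 starts for Ephx1, and the window shown belongs to the one that holds the match. In windows of 300 bases (250 before to 50 after the start), 17 of the 30 genes called higher and 17 of the 26 called lower had an entry. TGACNNNGC was in 3 of the 17 higher genes (Ephx1, Gclm and Gsta2) and in 2 of the 17 lower ones (Rem1 and Vill), and in 12.1% of all 33469 promoters. The interferon motif was in 3 of the 17 lower genes (Gbp2, Irf7 and Tmem140) and in 1 of the 17 higher ones (Ugt2b10), and in 3.92% of all promoters. A gene was counted once if any of its entries held the motif, whereas the percentages are over single promoter entries. These matches are a description of the letters, not of sites in use.

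The remaining lists showed little at this number of libraries, where 0.507% of all probes were called in either direction. Of 22 cholesterol synthesis genes none was called (2 had an unadjusted p under 0.05), with a median of −0.19. The edgeR test gave Cyp51, the mammalian lanosterol demethylase, a change of −0.23 ± 0.22 (adjusted p = 0.999), with 210 to 320 CPM over the 6 triflumizole libraries and 209 to 312 CPM in the DMSO libraries. Its change was −0.03 without the 33.3 µM library, −0.12 without 0.14 µM and −0.38 without DMSO replicate 2. None was called among 19 integrated stress response genes (4 under an unadjusted p of 0.05), 14 unfolded protein response genes (0), 12 heat shock genes (2), 11 p53 genes (0), 13 cell cycle genes (0), 9 bile acid genes (1), 7 retinoid genes (0) and 17 PPARgamma and lipid droplet genes (3). Of 18 acute phase genes Lcn2, an iron carrier induced in inflammation, fell, with 208 CPM at 33.3 µM against 486 to 752 CPM in DMSO libraries (−1.40 ± 0.26, adjusted p = 0.0279). Its change was −0.76 without the 33.3 µM library, and it lost its call also without DMSO replicate 2 or 3. No hepatocyte marker was called (0 of 14, 3 under an unadjusted p of 0.05), nor any of 7 endothelial (0), 5 stellate cell (1) and 3 bile duct markers (1).

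**Figure D4:**
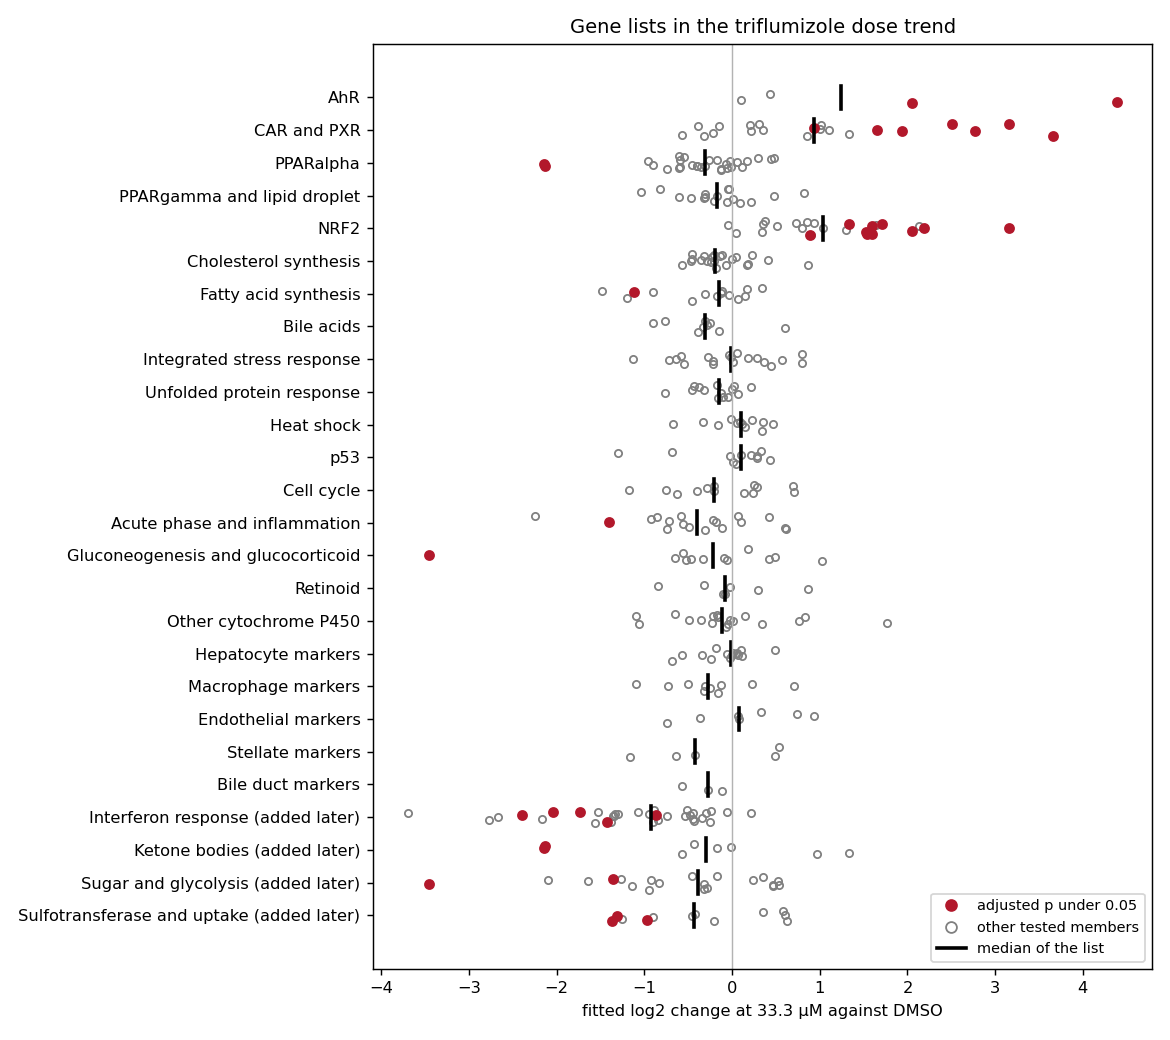
Fitted log2 change at 33.3 µM against DMSO for the tested members of each gene list (1 point per gene, vertical jitter for legibility, black bar the list's median, red points called at an adjusted p under 0.05). NRF2 members have a median of 1.04 with 10 called, CAR and PXR members one of 0.94 with 7 called, and the interferon list, put together after the values were seen, one of −0.92 with 5 called.

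Among called genes of other roles, Rem1, a small GTPase that inhibits calcium channels, had the lowest fitted change of the genes named here. It had 4.52 to 10.0 CPM in DMSO libraries, 3.75, 3.36, 3.81 and 2.60 CPM at the 4 lower doses, 0.957 CPM at 11.1 µM and 0.320 CPM at 33.3 µM, which is 2 counts. All 6 triflumizole libraries lay below all 8 DMSO libraries, with a change of −3.78 ± 0.52 (adjusted p = 0.00289) that was no longer called without the 33.3 µM library and was called without any 1 of the others. Rem1 was called from these same values, and the share of all probes below DMSO at every dose was not counted. Pln, phospholamban, an inhibitor of the calcium pump of the endoplasmic reticulum, fell by 2.79 ± 0.39 (adjusted p = 0.0029), with 0.960 CPM (6 counts) at 33.3 µM against 6.81 to 12.5 CPM in DMSO libraries. Lgals2, a galectin, fell by 1.997 ± 0.37 (adjusted p = 0.0244). The haem transporter Slc48a1 rose by 1.07 ± 0.22 (adjusted p = 0.042), with 74.0 CPM at 33.3 µM against 30.3 to 48.5 CPM in DMSO libraries. Lgals2 lost its call without either of the 2 highest doses or DMSO replicate 2 or 3, and Slc48a1 without any 1 triflumizole library but 0.14 µM or any 1 DMSO replicate but 5 and 7.

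Another 4 azoles were given at the same 6 doses on the same plate. These were imazalil, like triflumizole an imidazole, and flusilazole, hexaconazole and tetraconazole, which carry a triazole ring in place of the imidazole. The slopes of all 5 were fitted together over 38 libraries (the same 8 DMSO libraries among them), and triflumizole was compared with each of the 4, with p-values adjusted over all probes and the 4 pairs together. Triflumizole differed from imazalil in 698 probes (6.31%), 180 higher (1.63%) and 518 lower (4.69%) in triflumizole. It differed from flusilazole in 28 (0.253%), 19 of them higher (0.172%), from hexaconazole in 26 (0.235%), 15 of them higher (0.136%), and from tetraconazole in 19 (0.172%), 6 of them higher (0.0543%). For the slopes themselves, this fit called 4287 probes for imazalil and 126 for triflumizole. It called 167 for flusilazole, 7 for hexaconazole and 63 for tetraconazole. The 5 chemicals share their DMSO libraries, so their slopes are not independent. The imazalil 33.3 µM library differs from that chemical's lower doses, with Ddit3, a stress-induced transcription factor, at 1600 CPM against 54.5 to 78.0 CPM. Triflumizole libraries had 43.0 to 86.5 CPM of Ddit3, and the difference in slope was −4.06 (95% interval −5.25 to −2.87, adjusted p = 0.000452).

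Of the 25 tested NRF2 list members, 10 were higher in triflumizole than in imazalil, 6 than in flusilazole, 7 than in hexaconazole and 1 than in tetraconazole, and none was lower in any pair. The median difference over the list was 0.995, 0.78, 0.88 and 0.29 in that order, against 0.03, 0.01, 0.01 and 0.01 over all probes.

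Ptgr1 had 859 CPM with triflumizole at 33.3 µM, against 152 CPM with imazalil, 131 with flusilazole, 252 with hexaconazole and 334 with tetraconazole. Its slope was higher in triflumizole by 1.25 ± 0.32 than in imazalil (adjusted p = 0.033), by 2.35 ± 0.32 than in flusilazole (adjusted p = 0.000148) and by 1.63 ± 0.31 than in hexaconazole (adjusted p = 0.00577). Against tetraconazole the difference in Ptgr1 was 1.10 (95% interval 0.48 to 1.72, adjusted p = 0.0509), which missed the threshold. Gsta2 had 2011 CPM with triflumizole at 33.3 µM, against 168 CPM with imazalil, 657 with flusilazole, 460 with hexaconazole and 685 with tetraconazole. Its slope exceeded those of imazalil, flusilazole and hexaconazole by 1.77 ± 0.37, 1.31 ± 0.35 and 1.79 ± 0.36 (adjusted p = 0.00841, 0.0436 and 0.00716), and for tetraconazole the difference was 0.95 (95% interval 0.23 to 1.66, adjusted p = 0.183). The imazalil CPM of Ptgr1 and Gsta2 given here are those of its 33.3 µM library, which differs from its lower doses as described above. They do not show the course of imazalil at lower doses.

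Akr7a3 and Ephx1 also differed from the same 3 azoles. Akr7a3 was higher in triflumizole by 1.80 ± 0.33, 1.72 ± 0.33 and 2.01 ± 0.33 than in imazalil, flusilazole and hexaconazole, and Ephx1 by 1.73 ± 0.28, 1.35 ± 0.27 and 1.22 ± 0.27 (adjusted p between 0.00216 and 0.0154). Against tetraconazole the differences were 0.95 for Akr7a3 (95% interval 0.31 to 1.60) and 0.71 for Ephx1 (0.16 to 1.26), and neither was called. Slc48a1 was higher in triflumizole than in each triazole, by 0.96 ± 0.19, 0.86 ± 0.19 and 1.02 ± 0.19 for flusilazole, hexaconazole and tetraconazole (adjusted p = 0.00716, 0.0152 and 0.00604). Rem1 was lower than in hexaconazole by a difference of −2.73 ± 0.55 and than in tetraconazole by −2.86 ± 0.54 (adjusted p = 0.0078 and 0.00577). Klf10, a transcription factor, was lower than in imazalil, hexaconazole and tetraconazole, with differences of −1.02 ± 0.24, −1.202 ± 0.24 and −1.22 ± 0.23 (adjusted p = 0.0176, 0.00666 and 0.00621).

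The P450 and Ugt2b genes of the CAR and PXR list did not pass the test in any pair. Of the 21 tested members, Gsta2 was higher in 3 pairs as given above and the transporter Abcc3 was higher than in imazalil, by 1.15 ± 0.30 (adjusted p = 0.0395). Gadd45b, a stress and growth arrest gene, was lower than in tetraconazole, with a difference of −0.89 ± 0.23 (adjusted p = 0.033). Ugt2b10 had 1713 CPM with triflumizole at 33.3 µM, against 2187 CPM with flusilazole and 1754 CPM with tetraconazole, and at 3.7 µM 446 CPM with triflumizole against 1136 and 972 CPM. The slope of Cyp3a1 differed by −0.73 from flusilazole (95% interval −1.30 to −0.17, adjusted p = 0.197) and by −0.83 from tetraconazole (−1.40 to −0.26, adjusted p = 0.125). For hexaconazole the Cyp3a1 difference was 0.05 (95% interval −0.51 to 0.61) and for imazalil 0.17 (−0.40 to 0.74). Cyp2b2 differed by −3.38 from flusilazole (95% interval −6.08 to −0.67, adjusted p = 0.225) and by −3.94 from tetraconazole (−6.63 to −1.26, adjusted p = 0.124). Cyp1a1 was not called in any pair, with differences of −1.76 from imazalil (95% interval −4.27 to 0.76), 2.61 from flusilazole (0.15 to 5.07), 1.05 from hexaconazole (−1.23 to 3.33) and −0.72 from tetraconazole (−2.87 to 1.43). Hmox1 differences ran from −0.27 to 0.38, none called.

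These differences rest on the 33.3 µM libraries. Without the highest dose of both chemicals no probe differed in any pair, and without the triflumizole 33.3 µM library alone 1, 0, 1 and 0 probes did for imazalil, flusilazole, hexaconazole and tetraconazole. With each pair fitted alone (20 libraries) 1, 12, 5 and 2 probes were called. Those fits hold fewer libraries than the joint fit, and the cause of the lower counts was not tested. Among the genes named above, Ptgr1, Akr7a3, Ephx1 and Gsta2 stayed called against flusilazole and hexaconazole in those fits, and Rem1 against tetraconazole.

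**Figure D5:**
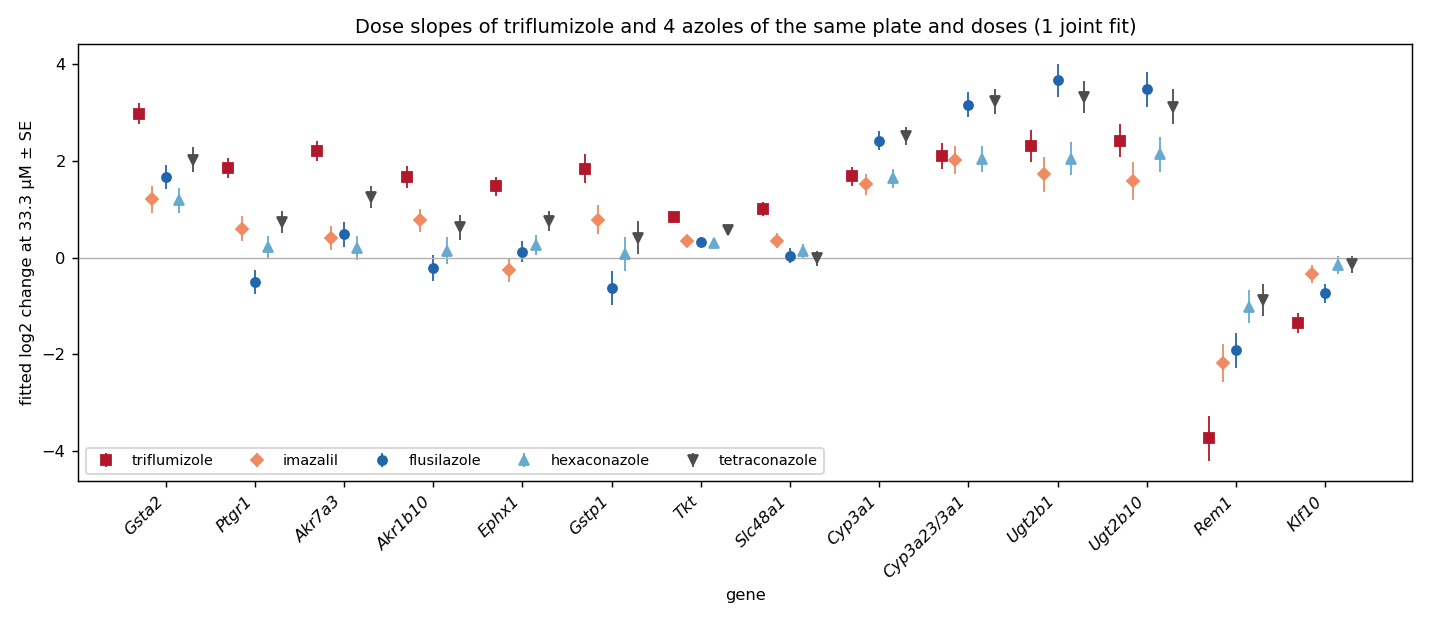
Fitted log2 change at 33.3 µM against DMSO (± SE, 1 joint fit over 38 libraries) of 14 genes for triflumizole (red squares) and 4 azoles of the same plate and doses. Triflumizole lies highest for the first 8 genes, all 5 azoles are above 0 for the 2 Cyp3a and 2 Ugt2b genes, and Rem1 and Klf10 lie lowest with triflumizole. The genes shown were picked from results of these same data, so their order is a description.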

How the data were processed

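TempO-Seq counts of 22253 probes in 192 libraries were used as the authors deposited them, as raw read counts per probe. The submitters' processing notes name Bowtie. Its version, the genome build and the probe sequences are not given in the sources used here. CPM values are counts divided by the library's total. A probe was tested if 6 or more of the 192 libraries reached 1.741 CPM, which is 10 counts in a library of median size (5745085); 11055 did. Dose trends were tested with edgeR 4.0.16 (R 4.3.3; TMM scaling, quasi-likelihood F test, plate as a term, Benjamini-Hochberg adjustment), checked on simulated data. DESeq2 1.42.0 was an alternative. The 5 azoles were fitted together, and 95% intervals use that fit's degrees of freedom.

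Named genes were, by rule, the 15 highest and 15 lowest called probes with a mean count of at least 10 that kept their sign without 33.3 µM, up to 6 called members and the extremes of each list, up to 5 probes per direction of each pair, and a fixed panel; some genes that meet it are not reported here. Gclm, Txnrd1, Srxn1, Akr1b8, Taldo1, Tiparp, Cyp2c11, Pklr, Usp18, Gbp5, Abcc3, Gadd45b and LOC1009109340.000001 fall outside it or were chosen after their values were seen. The members and the lists were chosen with earlier results of these data known, and 4 of the 26 lists were added after the values were seen. The labels speak of a log2 step between doses, whereas the doses printed lie about 3-fold apart.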

Additional observations from a re-analysis of the deposited data

Results flagged for a closer look

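Among the 8 DMSO libraries the highest or lowest value stood far from the rest for 9 of the 80 genes looked at, where chance flags about 1 in 20 groups. In 8 of the 9 the library was DMSO replicate 5. It had the lowest value of Tmem140 (106 CPM), F11 (58.7 CPM), Cyp1a2 (29.5 CPM), Sqle (10.4 CPM), Cyp2c6v1 (185 CPM), Fasn (26.4 CPM) and Klf10 (38.9 CPM), and the highest of Por (437 CPM). DMSO replicate 2 had the highest value of Ephx1 (1056 CPM). On the first principal component DMSO replicate 5 scored 2.74, far above the other 7. In DMSO replicate 1, which entered the fits only as an alternative, 3397 of 5535 probes lay at least 1 (log2) from the mean of the other DMSO libraries.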

How the results depend on the processing

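The 56 trend calls became 149 with DESeq2, 110 without a plate term, 17 within plate 1, 7 with DMSO replicate 1 kept, 493 with the first principal component as a covariate, 265 without DMSO replicate 5 and 0.14 µM, and 381 without 3.7 µM as well. Leaving out 1 library gave 4 to 112. The NRF2 count of 10 became 2 with DMSO replicate 1 kept, 19 with the component and 17 without DMSO replicate 5, 0.14 and 3.7 µM, with 1 to 12 when 1 library was left out. The CAR and PXR count of 7 became 11 without a plate term, 3 within plate 1, 2 with DMSO replicate 1 kept, 4 with ranked doses, 12 with the component, 11 without DMSO replicate 5 and 0.14 µM and 12 without 3.7 µM as well, with 1 to 9 when 1 library was left out.

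The 698 calls for triflumizole minus imazalil became 1284 with DESeq2, 34 with ranked doses, 216 with the component, 1252 without DMSO replicate 5 and 0.14 µM, and 1 with the pair fitted alone. The 28 for flusilazole became 18 without the filter, 62 with DESeq2, 6 with ranked doses, 60 without DMSO replicate 5 and 0.14 µM, and 12 fitted alone. The 26 for hexaconazole became 17, 40, 6, 43 and 5 under the same settings. The 19 for tetraconazole became 10, 39, 1, 44 and 2, and 11 with the component. All 4 became 0 without the highest dose of both chemicals. Leaving out 1 library gave 1 to 942, 0 to 44, 1 to 36 and 0 to 25 for imazalil, flusilazole, hexaconazole and tetraconazole.

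With a limit of 2 (log2) the departure counts were 19, 1, 3, 4, 2 and 14 from the lowest to the highest dose. Without DMSO replicate 5 in the mean they were 606 at 0.14 µM, 14 at 0.4 µM and 154 at 3.7 µM.

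All 48 called genes looked at kept their sign in every setting, 1 of them (Gsta50.81) kept its call in each, and 45 lost it without the 33.3 µM library. With DMSO replicate 1 kept, Irf7 moved to −4.58, Slco1a1 to −1.64 and Cyp2b2 to 2.07. Signs turned for 3 uncalled genes. Pparg (0.01) was −0.062 without a plate term, −0.23 with DMSO replicate 1 kept, and −0.27 to 0.19 with 1 library left out. Acot1 (0.48) was −0.0079 without DMSO replicate 5 and 0.14 µM, −0.019 without 3.7 µM as well, and −0.022 to 2.18 with 1 library left out. Cpt1a (0.11) ran from −0.024 to 0.33 with 1 library left out. In triflumizole minus imazalil Gclm stood at −0.0015 without the highest dose of both. Apart from cases that follow from fewer libraries, the cause of these changes was not tested.

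No paired analysis was possible because only the DMSO libraries carry replicate numbers and triflumizole has 1 library per dose.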
